A study of Mus musculus with 4 samples.

Results

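Total RNA-seq was used to compare the maternal JF1 allele with the paternal B6 allele of each autosomal gene in wild-type JB1 cells. JB1 is a male hybrid mouse embryonic stem cell (ESC) line obtained from a JF1 mother and a C57BL/6 (B6) father, and JF1 is an inbred strain of Japanese mice (M. m. molossinus) that differs from B6 at many single bases across the genome. The 2 wild-type libraries were made from cells taken on day 12 of in vitro corticogenesis, with the sonic hedgehog inhibitor cyclopamine at 1 µM from day 2 to day 10. The other 2 libraries of the series, treated in the same way, came from Zfp57-/- cells derived from JB1. They were used here for the spread and as a second line of the same cross. Members were the autosomal genes (chromosomes 1 to 19) with at least 10 allelic counts, the sum of JF1 and B6 counts, in both wild-type libraries. They numbered 11079 of the 54750 genes in the table. Among them 46 were genes that the paper names as imprinted, and these are not described here. Of the remaining 11033 genes, 283 lay in 16 runs of neighbouring one-allele genes and are treated apart, which left 10750 genes, 10053 of them protein coding.

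In an F1 hybrid both alleles of a gene sit in the same nucleus and meet the same transcription factors. A difference between their transcripts therefore points to something carried in cis, such as a base change in a promoter, an enhancer or an exon. Such cis differences between mouse strains are known at many genes, and they are distinct from imprinting, in which the parental origin and not the sequence of an allele sets its expression. The JB1 cross has 1 direction only, so JF1 is always maternal, and strain and parent of origin cannot be told apart in these data. Each genotype is moreover 1 cell line, so a difference between the chromosome copies of that line cannot be told apart from a difference between the strains.

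The values are the allelic ratio, JF1/(JF1 + B6), in which 0.5 is an equal share, and the log2 of JF1 over B6 with its standard error (SE). A gene is called different where its Benjamini-Hochberg adjusted p, from edgeR's quasi-likelihood test over all 11079 genes, is under 0.05, and strongly biased where it is called and its mean ratio is at most 0.33 or at least 0.67. Wild-type libraries held 2837013 and 3695630 allelic counts, which were 37.0% and 36.1% of their bulk counts, and a member had a median of 114 and 152 allelic counts. Neural progenitor markers summed to 1560 and 1790 CPM (bulk counts scaled to a common library total) in the wild-type libraries, against 2.74 and 6.85 CPM for the pluripotency markers. The Zfp57-/- libraries kept 655 and 562 CPM of the pluripotency markers, beside 1080 and 1060 CPM of the neural progenitor markers. Of the latter sum Vim alone gave 720 and 693 CPM. Among the progenitor markers Hes5 was at 1.26 and 0.967 CPM there, whereas Sox2 was at 141 and 159 CPM against 109 and 122 CPM in wild-type cells. All the progenitor markers other than Sox2 were lower in both Zfp57-/- libraries than in both wild-type libraries. Neuron markers summed to 1260 and 1650 CPM in wild-type but to 211 and 163 CPM in Zfp57-/- cells, so the lines were not equally neural. Markers of endoderm and mesoderm summed to 273 and 491 CPM in wild-type and to 425 and 563 CPM in Zfp57-/- cells, so both lines held cells outside the neural lineage, and a ratio is an average over all of them.

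Reads of X-linked genes gave the share of JF1 reads placed on B6, since male JB1 cells carry the JF1 X chromosome alone. The opposite error, B6 reads placed on JF1, cannot be measured in this way. In wild-type cells 347 of 178419 X-linked allelic counts were put on B6, or 0.194%. The Wilson 95% intervals were 0.145 to 0.204% in replicate 1 and 0.185 to 0.242% in replicate 2, and these intervals, like all those below, cover counting error only. Of 398 X-linked genes with enough counts, 365 had no B6 read and 393 had a ratio of at least 0.99. The misplaced reads were uneven, as Nono alone, which encodes an RNA-binding protein of paraspeckles, supplied 55.9% of them, with 61 and 133 B6 against 480 and 860 JF1 counts. Without the 5 genes with most B6 counts, 3 of which were annotated as processed pseudogenes, the share was 0.0391%.

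Most autosomal genes used both alleles alike. Outside the runs the median ratio was 0.497 in replicate 1 and 0.5 in replicate 2, and chromosome medians lay between 0.481 and 0.513. Of the 5633 genes with at least 100 allelic counts in both libraries, 85.5% had a ratio from 0.4 to 0.6, and the ratios at the 5th and 95th percentiles were 0.401 and 0.667. Over these genes the ratio of replicate 1 and that of replicate 2 correlated at 0.862, which is a description across genes. The difference between the libraries had an SD of 0.0501, against an SD of 0.0920 for the mean ratio over genes.

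Outside the runs 2275 genes (21.2% of 10750) were called, 1279 with JF1 higher (11.9%) and 996 with B6 higher (9.27%). Over all 11079 genes the share was 23.4%. Both libraries lay on the same side of 0.5 for 2269 of the 2275 genes. The calls were made from these same libraries, so this agreement is largely built in. Most differences were small, as 55.7% of the calls were under 2-fold and 642 were under 1.5-fold. JF1-higher genes had the larger differences, with a median log2 of 1.11 against -0.70 for B6-higher genes. Strong bias was found at 991 genes (9.22%), 681 toward JF1 (6.33%) and 310 toward B6 (2.88%), and a ratio of at least 0.9 or at most 0.1 at 159 and 49 called genes.

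The number of calls rested on both libraries. Without wild-type replicate 1 the test called 1324 genes and without replicate 2 it called 1094, and 842 genes (37.0% of the calls) were called the same way in both cases. DESeq2 called 891 genes. With trimmed mean of M-values (TMM) scaling between the alleles, which shifted log2 JF1/B6 by 0.0542 and 0.0615 in the 2 libraries, the split turned to 1160 genes with JF1 higher and 1259 with B6 higher, against 672 strong genes toward JF1 of 996. The direction of the small differences taken as a whole thus depended on the scaling, whereas JF1 kept the larger number of strong genes under TMM.

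**Figure D1:**
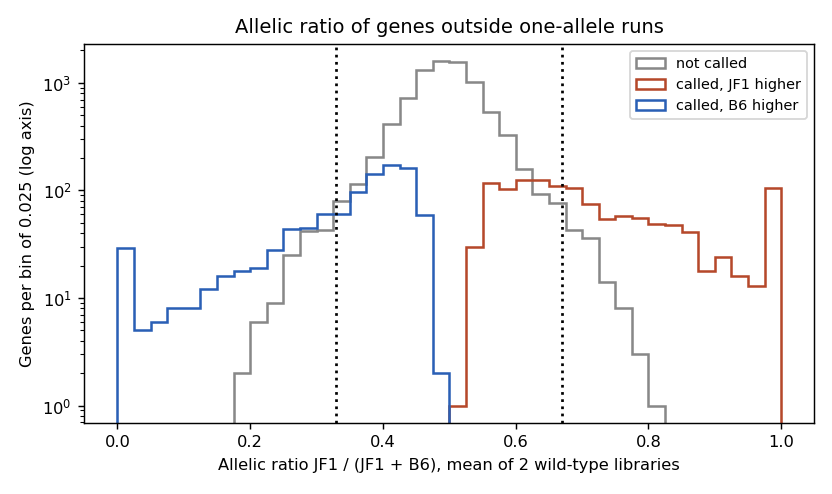
Number of genes outside the one-allele runs by allelic ratio, the mean of 2 wild-type libraries, in bins of 0.025 on a logarithmic axis, for genes not called, called with JF1 higher and called with B6 higher. Dotted lines mark 0.33 and 0.67. The called genes form a tail on each side, with 681 strongly biased genes toward JF1 and 310 toward B6, and a peak in the last bin at each end.

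Depth set what could be called. Among genes with 20 to 50 allelic counts over both libraries 11.3% were called, and the smallest called difference was 1.37 on the log2 scale. Among genes with over 1000 counts 34.4% were called, down to a log2 difference of 0.11. The 5 eligible genes with most counts show what such a difference is. Lama1, the laminin alpha chain of early basement membranes, had ratios of 0.568 and 0.577 in wild-type cells (log2 0.42, SE 0.04, adjusted p = 6.21e-19) and of 0.569 and 0.579 in Zfp57-/- cells. Its bias was thus modest, alike in all 4 libraries and far larger than the spread between them. Lamc1 (log2 0.13, SE 0.04) and Col4a1 (log2 -0.11, SE 0.04), which encode another laminin chain and a collagen IV chain of the same membranes, were called at differences of that small size, and Col4a1 turned to 0.03 when centred on its neighbours. Malat1, a nuclear noncoding RNA, and Eef1a1, a translation elongation factor, had log2 values of -0.08 and 0.04 and were not called.

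Nearly all processed pseudogenes stood apart. These are intron-less copies of a spliced transcript elsewhere in the genome, and reads of the parent gene and of the copy can be exchanged in alignment. Whether this moved the ratios was not tested. Of 69 processed pseudogenes outside runs, 62 (89.9%) were called, with 33 at a ratio of 0.9 or more and 20 at 0.1 or less. Of the 62 calls, 57 were made the same way in Zfp57-/- cells. Genes of families with near-identical copies, such as histone, ribosomal protein and tubulin genes, are open to the same exchange of reads, and their values below are uncertain. Without processed pseudogenes, histone and ribosomal protein genes 2149 of 10574 genes remained called, 1202 of them with JF1 higher.

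The 8 JF1-higher genes with the largest difference, among named genes with at least 100 allelic counts per library, had almost no B6 read. Map3k4, a kinase of the stress-activated p38 and JNK cascades on chromosome 17 (12227621 to 12318796, GRCm38), had 337 and 383 JF1 counts and 0 B6 counts in both libraries. Against a floor of 3 counts over both libraries JF1 was at least 240-fold higher. The Zfp57-/- libraries had 181 JF1 against 199 B6 counts and 168 against 191, and the genotype-by-allele contrast, the test of whether log2 JF1/B6 differs between genotypes, gave an adjusted p of 1.70e-41. Total Map3k4 RNA was 123 and 105 CPM in wild-type and 108 and 110 CPM in Zfp57-/- cells, so its level overlapped between genotypes while its allelic ratio did not.

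Agpat4, an acyltransferase of phospholipid synthesis, lies next to Map3k4 (chromosome 17, 12118704 to 12219645) and had 168 and 251 JF1 counts with 0 B6 counts, at least 140-fold. Both genes lie outside any run, and their 15 nearest genes had a median ratio of 0.548. Erp44, a chaperone of the endoplasmic reticulum (chromosome 4, 48193323 to 48279558), had 224 and 333 JF1 counts with 0 B6 counts, at least 186-fold. Ets2, a transcription factor (chromosome 16, 95702075 to 95721051), had 136 and 247 JF1 counts with 0 B6 counts, at least 128-fold. Kazn, a protein of the cornified envelope and cell junctions, had 162 and 277 JF1 counts with 0 B6 counts, at least 146-fold, and the median ratio of its 15 nearest genes was 1.00, since it borders a run on chromosome 4. All 4 were near equal shares in Zfp57-/- cells or leaned to B6, with mean ratios of 0.486, 0.477, 0.445 and 0.382, and all 4 passed the genotype-by-allele contrast.

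Tubb5, a beta-tubulin abundant in dividing progenitors, had 2928 JF1 against 4 B6 counts in replicate 1 and 5530 against 1 in replicate 2. Its ratios in Zfp57-/- cells were 0.45 and 0.48. Rps3a1, a protein of the small ribosomal subunit, had ratios of 0.995 and 0.997 in wild-type cells, against 0.245 and 0.238 in Zfp57-/- cells, which is a change of side rather than a return to 0.5. Its bulk level also differed, at 208 and 202 CPM in wild-type against 760 and 703 CPM in Zfp57-/- cells. Both belong to families with many copies. Tpm3-rs7, a tropomyosin-related sequence, was the only 1 of the 8 that was one-sided in both genotypes, with 146 and 392 JF1 counts and 0 B6 counts in wild-type cells, at least 179-fold, and 501 and 487 JF1 against 1 and 0 B6 counts in Zfp57-/- cells.

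The 5 further JF1-higher genes with the smallest adjusted p kept a fraction of B6 reads. Kif5b, a kinesin heavy chain that carries cargo along microtubules, had ratios of 0.916 and 0.927 (log2 3.56, SE 0.07, adjusted p = 5.04e-76), against 0.517 and 0.505 in Zfp57-/- cells. Gsto1, a glutathione transferase of the omega class, had 2 and 10 B6 against 251 and 995 JF1 counts (log2 6.67, SE 0.20), against ratios of 0.508 and 0.530. Rpl3, a ribosomal protein, had ratios of 0.823 and 0.844 (log2 2.33, SE 0.07), against 0.503 and 0.505. Hist1h1c, a linker histone, had ratios of 0.915 and 0.886 (log2 3.13, SE 0.09), against 0.499 and 0.512. Hist1h4c, a core histone, had 0.958 and 0.955 in wild-type and was still at 0.839 and 0.806 in Zfp57-/- cells. These 5 genes passed the contrast between genotypes, and Hist1h4c alone of them was also called with JF1 higher in Zfp57-/- cells. The 15 nearest genes had a wild-type median ratio of 0.617 for Hist1h1c and Hist1h4c and of 0.599 for Rpl3.

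**Figure D2:**
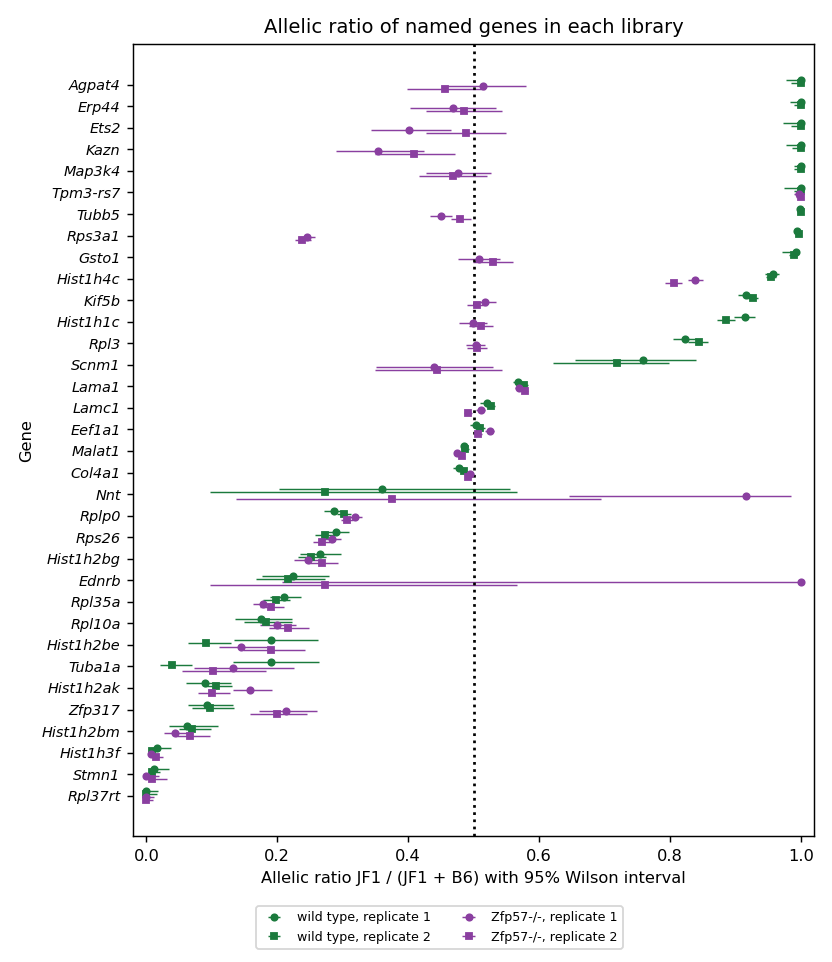
Allelic ratio of each named gene (rows) in each library, with 95% Wilson intervals for counting error. Circles and squares are replicates 1 and 2, green is wild type and purple is Zfp57-/-. At the top, wild-type points of Agpat4, Erp44, Ets2, Kazn and Map3k4 sit at 1.00 with the Zfp57-/- points between 0.354 and 0.515, while at the bottom the points of Hist1h3f, Stmn1 and Rpl37rt from all 4 libraries lie together. Ednrb and Nnt have few counts in Zfp57-/- cells.

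The genes with the largest difference toward B6 behaved otherwise, as they lay on the same side in all 4 libraries. Stmn1, which encodes the microtubule-destabilising protein stathmin, had 3 JF1 against 252 B6 counts in wild-type replicate 1 and 5 against 551 in replicate 2 (log2 -6.61, SE 0.26, adjusted p = 1.41e-47), and 0 against 194 and 2 against 232 in Zfp57-/- cells. Rpl37rt, annotated as a transcribed processed pseudogene of a ribosomal protein gene, had 0 JF1 against 214 and 219 B6 counts, at least 144-fold lower from JF1, and 0 JF1 counts in Zfp57-/- cells as well. Zfp317, a zinc-finger gene, had ratios of 0.092 and 0.097 in wild-type and of 0.213 and 0.199 in Zfp57-/- cells, and this was the only 1 of the 8 that passed the contrast between genotypes (adjusted p = 4.57e-05). Tuba1a, an alpha-tubulin of young neurons, had 26 JF1 against 111 B6 counts and 10 against 249, so its ratio of 0.190 in replicate 1 and 0.039 in replicate 2 differed more between libraries than that of the other 7 genes. Its bulk level was 1070 and 1660 CPM, against 280 and 486 CPM for Stmn1, so a smaller part of its reads was assigned to an allele.

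The other 4 were histone genes of the cluster on chromosome 13. Hist1h3f had ratios of 0.016 and 0.008, Hist1h2bm 0.062 and 0.070, Hist1h2ak 0.089 and 0.107, and Hist1h2be 0.190 and 0.091. The 5 with the smallest p beyond these were Rplp0, Rpl35a, Rps26 and Rpl10a, which encode ribosomal proteins, and Hist1h2bg, with wild-type mean ratios between 0.179 and 0.294 and Zfp57-/- mean ratios between 0.185 and 0.313. In the contrast between genotypes their adjusted p lay between 0.309 and 1.00. In all, 11 of the 13 B6-higher genes named for their size or p are histone, ribosomal protein or tubulin genes, and their ratios are uncertain, since an exchange of reads with near-identical copies was not tested.

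The Zfp57-/- libraries, of a line derived from JB1, entered the wild-type test only through the spread. The lines were not alike along the genome, as 15 of the 16 wild-type runs had Zfp57-/- medians between 0.431 and 0.509. The shares given next are therefore not a rate of replication. Of the 2275 calls, 1655 (72.7%) had the Zfp57-/- ratio on the same side of 0.5, against 63.6% of all 10750 genes, and 903 (39.7%) were called the same way, where 21.9% of the 10750 genes were called in Zfp57-/- cells. The share was lower for JF1-higher than for B6-higher genes, at a Zfp57-/- median over all genes of 0.489. Of the JF1-higher genes 769 of 1279 (60.1%) stayed on the same side and 347 (27.1%) were called the same way. Of the B6-higher genes 886 of 996 (89.0%) stayed on the same side and 556 (55.8%) were called the same way.

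The contrast between genotypes was passed by 12.0% of the 10750 genes. It was passed by 773 of the calls (34.0%), of which 670 were JF1-higher (52.4% of these) and 103 B6-higher (10.3%). Calls were selected on the same wild-type values that the contrast uses. A share above 12.0% is therefore partly built in, more so for strong calls. Strongly biased genes showed the same imbalance in larger measure. Of the 681 strong JF1 genes, 431 (63.3%) passed the contrast, 136 (20%) were strongly biased toward JF1 in Zfp57-/- cells too, and the medians of their ratios were 0.789 for the wild-type and 0.519 for the Zfp57-/- libraries. Of the 310 strong B6 genes, 21 (6.77%) passed the contrast, 170 (54.8%) were strong toward B6 in Zfp57-/- cells too, and their median ratio was 0.252 against 0.279. Of the 159 calls at 0.9 or more, 90 had a Zfp57-/- ratio between 0.3 and 0.7, and of the 49 calls at 0.1 or less, 5 did. Chromosome 1 is a special case in its median ratio, which was 0.488 in wild-type but 0.618 in Zfp57-/- cells. It held 684 of the 10750 genes and 119 of the 2275 calls, and 44 of these 119 passed the contrast, against 34.0% of all calls.

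Bulk levels of the genes that differed most in ratio were compared as well. For the 90 genes at 0.9 or more in wild-type and between 0.3 and 0.7 in Zfp57-/- cells, the difference in log2(CPM + 1), wild-type minus Zfp57-/-, had a median of 0.06 and quartiles of -0.36 and 0.41. Over all 10750 genes the median was 0.13 with quartiles of -0.31 and 0.67, so the ranges overlapped. In bulk samples, fewer cells of a type and less RNA per cell cannot be told apart.

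**Figure D3:**
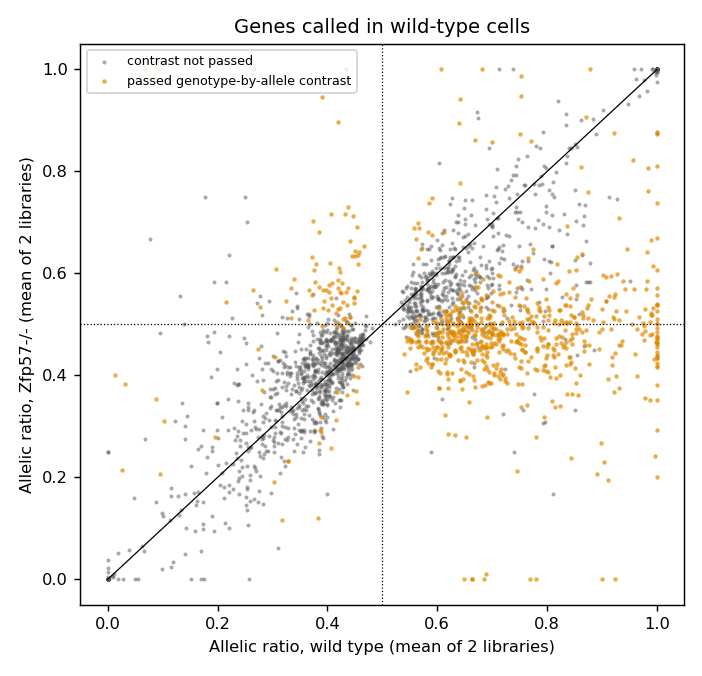
Allelic ratio in wild-type (horizontal) and Zfp57-/- cells (vertical), each the mean of 2 libraries, for the genes called in wild-type cells, with the 773 that passed the genotype-by-allele contrast in orange. Points of B6-higher genes, on the left, follow the diagonal, whereas many JF1-higher genes, on the right, form a horizontal band near 0.5 in Zfp57-/- cells.

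Some genes had the same strong bias in both genotypes. With at least 100 allelic counts in all 4 libraries, 34 named genes were called and strong toward JF1 in both genotypes and 38 toward B6. The genes below were picked from these after their values were seen, those taken to be without near-identical copies first. Copies were not assessed for any gene, and an exchange of reads was not tested for any of them. Lbp, which binds bacterial lipopolysaccharide, had ratios of 0.956 and 0.977 in wild-type cells, against 0.935 and 0.959 in Zfp57-/- cells (chromosome 2, 158306493 to 158332852). Cdk2ap1, a regulator of cell-cycle entry, had 0.917 and 0.978 against 0.916 and 0.950. Hjurp, the chaperone that loads the centromeric histone CENP-A, had 0.868 and 0.873 against 0.898 and 0.914, a small difference that passed the contrast (adjusted p = 0.0319). Hjurp lies on chromosome 1, and its 15 nearest genes had a median ratio of 0.488 in wild-type but of 0.651 in Zfp57-/- cells. Loxl2, an enzyme that crosslinks collagen, had 0.858 and 0.852 against 0.810 and 0.887, at bulk levels of 272 and 158 CPM against 64.1 and 74.6 CPM. Its ratios overlapped between the genotypes although its levels did not. Clu, the extracellular chaperone clusterin, had 0.689 and 0.9 against 0.808 and 0.811, with its wild-type libraries on both sides of the Zfp57-/- values, at 24.8 and 29.7 CPM against 168 and 179 CPM.

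Toward B6, Rnf7, a RING subunit of ubiquitin ligases, had ratios of 0.199 and 0.217 in wild-type cells, against 0.205 and 0.211 in Zfp57-/- cells (log2 -1.91, SE 0.16). Grik3, a kainate receptor subunit, had 0.272 and 0.189 against 0.333 and 0.260, and Sarnp, a protein of mRNA export, had 0.229 and 0.172 against 0.319 and 0.237. Gtpbp10, a mitochondrial GTPase, had 0.094 and 0.252 against 0.308 and 0.277, with its wild-type libraries further apart than the genotypes. Fam171b, toward JF1, and Ftl1, the ferritin light chain, toward B6, were strong in both genotypes but passed the contrast, with mean ratios of 0.874 against 0.759 and of 0.195 against 0.279. Among genes with near-identical copies, Fau, a ribosomal protein fusion gene, had 0.851 and 0.848 against 0.840 and 0.867, Rpl27 had 0.873 and 0.895 against 0.904 and 0.899, and Pgam1, a glycolytic mutase, had 0.911 and 0.866 against 0.877 and 0.871.

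Of 4 genes at which B6, JF1 or their substrains are known to carry a variant, 3 could be tested. JF1 mice carry the piebald allele of Ednrb, the endothelin receptor B of neural crest and glia, an insertion that lowers its transcript. Ednrb had 58 JF1 against 201 B6 counts in replicate 1 and 50 against 182 in replicate 2, with ratios of 0.224 and 0.216 (log2 -1.82, SE 0.20, adjusted p = 1.17e-13). Its bulk level was 59.9 and 39.2 CPM in wild-type but 0.419 and 1.35 CPM in Zfp57-/- cells, where 1 and 11 allelic counts allow no reading. Scnm1, a splicing factor with a known B6 variant, had ratios of 0.759 and 0.719 (log2 1.49, SE 0.28, adjusted p = 7.38e-06), against 0.439 and 0.444 in Zfp57-/- cells. Nnt, a mitochondrial transhydrogenase partly deleted in C57BL/6J and annotated as a pair of overlapping genes of which 1 could be tested, had 9 JF1 against 16 B6 counts and 3 against 8, and was not called (adjusted p = 0.337). B6 reads were thus listed for Nnt, at a depth of 25 and 11 counts. Gabra2 had 12 and 6 allelic counts, under the minimum in 1 library.

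The functional groups were read against the background of 21.2%, with the depth of their members in mind, since a list of abundant genes has more calls. Ribosomal protein genes had a median of 1896.5 allelic counts over both libraries, and 34 of 62 were called (54.8%), 18 with JF1 and 16 with B6 higher, 26 of them the same way in Zfp57-/- cells. Beside Rps3a1, Rps3a3, annotated as a processed pseudogene, stood out with 0 JF1 against 45 and 78 B6 counts, at least 41-fold lower from JF1. The bulk level of Rps3a3 was 267 and 285 CPM, so few of its reads were assigned to an allele. Histone genes (Hist symbols) were called at 32 of 47 (68.1%), 21 with JF1 higher. In both families the calls went in either direction.

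Among genes of the tissue, 8 of 20 neural progenitor genes were called (40.0%), 3 with JF1 and 5 with B6 higher, at a median of 776.5 counts. Nes, the intermediate filament nestin of neural progenitors, had ratios of 0.747 and 0.785 (log2 1.72, SE 0.07) against 0.494 and 0.493 in Zfp57-/- cells (contrast, adjusted p = 3.41e-30). Phgdh, the first enzyme of serine synthesis, leaned to B6 with 0.337 and 0.310 against 0.323 and 0.367. Vim, Sox2 and Pax6 had ratios of 0.507, 0.554 and 0.476 and were not called. Neuronal genes were called at 9 of 24 (37.5%), 6 with JF1 and 3 with B6 higher. The largest difference among them was that of Stmn1, given above, toward B6 in both genotypes. Tubb3, the neuronal beta-tubulin, had 0.655 and 0.672 against 0.451 and 0.443 in Zfp57-/- cells, and Ina, the neurofilament alpha-internexin, 0.817 and 0.812 against 0.331 and 0.345. Neural transcription factors were called at 2 of 27 (7.41%), 1 in each direction. Sox1, a factor of neural progenitors, leaned to B6 with 0.364 and 0.414, and had at most 40 allelic counts per Zfp57-/- library. With centring on the neighbours 4 of the 27 were called, and Sox1 lost its call (log2 -0.48, adjusted p = 0.0942).

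Endoderm and mesoderm genes, present because both lines held such cells, were called at 13 of 21 (61.9%), 7 with JF1 and 6 with B6 higher, but 1 was strong, Gata6, a factor of primitive endoderm, with 0.657 and 0.710. Acta2, smooth muscle actin, had 0.526 and 0.613, and Apob, the apolipoprotein of lipoprotein particles, 0.642 and 0.688. With centring on the neighbours 8 of the 21 were called, and Apob lost its call (adjusted p = 0.0798). Collagens, laminins and integrins were called at 21 of 47 (44.7%), 15 with JF1 higher. Col11a1, a fibrillar collagen, had 0.868 and 0.884 against 0.432 and 0.412 in Zfp57-/- cells, Lama2 had 0.867 and 0.868, and Lamc3 leaned to B6 with 0.221 and 0.211. Lama2 and Lamc3 had at most 6 allelic counts per Zfp57-/- library. Of the pluripotency genes, Tfcp2l1, Sox2, Esrrb and Tet1 could be tested, and their adjusted p by edgeR were 0.139, 0.151, 0.45 and 0.827.

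Glutathione transferases, a family of detoxifying enzymes with tandem copies, were called at 5 of 11 (45.5%). Gstm5 had 0 JF1 against 16 and 22 B6 counts, at least 12.7-fold, and 0 and 1 JF1 against 35 and 33 B6 counts in Zfp57-/- cells. Gstm4 lay the other way, with 21 JF1 against 1 B6 count and 23 against 7. Of 257 numbered zinc-finger genes, 43 were called (16.7%), 25 with JF1 higher. Zfp979 had 29 and 24 JF1 counts and 0 B6 counts, at least 17.7-fold, and 0.874 in Zfp57-/- cells. Its 15 nearest genes had a wild-type median ratio of 0.837, so it lay in a stretch that leaned to JF1. Zfp691 had 27 JF1 against 1 B6 count and 51 against 2, with intervals of the ratio of 0.823 to 0.994 and 0.872 to 0.99. Zfp763 had 46 against 2 and 60 against 0, with intervals of 0.860 to 0.988 and 0.940 to 1.00. Zfp691 and Zfp763 had Zfp57-/- mean ratios of 0.398 and 0.355, and their 15 nearest genes had wild-type median ratios of 0.609 and 0.602.

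Groups near or below the background were the respiratory chain with 14 of 56 (25%), the proteasome with 7 of 30 (23.3%), the interferon response with 3 of 15 (20%), the aminoacyl-tRNA synthetases with 5 of 30 (16.7%) and the clustered protocadherins with 5 of 44 (11.4%). In the respiratory chain, Atp5g2, a subunit of the ATP synthase ring, had 0.967 and 0.995 against 0.642 in Zfp57-/- cells, Ndufb4 of complex I had 0.852 and 0.779 against 0.799, and Cox6b2 0.412 and 0.214. The proteasomal ATPases Psmc3 (mean 0.760) and Psmc2 (0.658) leaned to JF1 and Psmc5 (0.320) to B6. Of the interferon list, Xaf1 had a mean ratio of 0.871 on 11 and 12 allelic counts, Rnf213 had 0.397, and Tapbp, at 0.818, whose 15 nearest genes had a median ratio of 0.843, turned to a log2 of -0.26 when centred on them. The synthetases Vars2, Lars2 and Gars had mean ratios of 0.644, 0.627 and 0.440, and centring on the neighbours left Vars2 at a log2 of 0.40 in place of 0.86 (adjusted p = 0.138). The protocadherins Pcdhb6, Pcdhb5 and Pcdhb15 had mean ratios of 0.812, 0.750 and 0.675. H2-D1, a class I histocompatibility gene, was the only such gene tested outside runs, with 14 JF1 against 1 B6 count and 14 against 2, and leaned to B6 in Zfp57-/- cells, at 0.230. The 15 genes nearest to H2-D1 had a wild-type median ratio of 0.645.

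Of 28 genes known as imprinted from elsewhere but not named in the paper, 5 were called (17.9%). Of these 5, 1 had JF1 and 4 had B6 higher, and all lay within the limits of 0.33 and 0.67 in wild-type cells. In Zfp57-/- cells 3 of the 5 were called the same way, and 0 passed the contrast between genotypes. The number called was 8 when the wild-type libraries were fitted alone and 10 when centred on the neighbours. Sfmbt2, a Polycomb protein with paternal expression in extraembryonic tissue, had wild-type ratios of 0.384 and 0.352, Gab1, a signalling adaptor, 0.391 and 0.410, and Lin28b, which blocks let-7 maturation, 0.438 and 0.415. Their Zfp57-/- ratios were 0.198 and 0.346 for Sfmbt2, 0.296 and 0.342 for Gab1, and 0.489 and 0.464 for Lin28b. Several of the calls named among the functional groups needed both libraries. Without wild-type replicate 1, and likewise without replicate 2, the calls of Lamc3, Col4a1, Sox1, Gab1, Lin28b, Lars2, Xaf1, Psmc5, Apob, Pcdhb5, Pcdhb6 and Pcdhb15 were lost. Those of Gstm4 and Lama2 were lost without replicate 1 alone, and those of Lamc1, Sfmbt2, Cox6b2, Rnf213, Vars2 and Acta2 without replicate 2 alone. In this cross a lower JF1 share is also a lower maternal share, and the strain and the parent cannot be told apart.

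**Figure D4:**
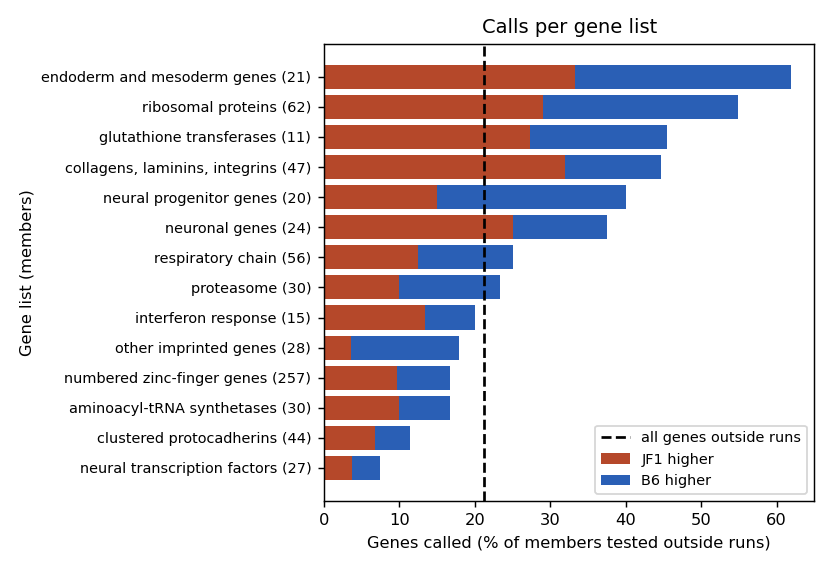
Share of the members of each gene list called with JF1 higher (red) or B6 higher (blue), for lists with at least 10 genes outside runs, with the number of members in parentheses. The dashed line is the share over all genes outside runs, 21.2%. Endoderm and mesoderm, ribosomal protein, glutathione transferase and extracellular matrix lists lie above it, and protocadherins and neural transcription factors below it.

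The one-allele runs were found where a running median over 5 genes stayed at 0.9 or more, or 0.1 or less, for at least 5 genes. All 16 runs, on 9 chromosomes, were toward JF1, and 282 of their 283 genes (99.6%) were called. The longest by genes held 63, from Fam181b to Xndc1 on chromosome 7 (93.1 to 102.1 Mb), and 62, from Sema3f to Trank1 on chromosome 9 (107.7 to 111.4 Mb). In 15 of the 16 the Zfp57-/- median lay between 0.431 and 0.509. The exception, 5 genes on chromosome 1 from Gm10222 to Gm29216 (24612407 to 24616197), had a median ratio of 1.00 in both genotypes. It was the shortest of the 16 runs. Whether its reads came from near-identical copies elsewhere in the genome was not tested, so it may not reflect alleles of chromosome 1.

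Beyond the runs, many JF1-higher genes lay near each other. Of the 681 strong JF1 genes 278 (40.8%) had a strong JF1 gene as an adjacent tested gene, against 11.4% of all genes outside runs. For the 310 strong B6 genes the share was 36 (11.6%) against 5.59%. Calls were also counted by neighbourhood, measured as the median ratio of the 15 nearest tested genes. Where it was from 0.7 to 0.9, 55 of 75 genes were called with JF1 higher and 1 with B6 higher, and the genes' median ratio was 0.781 in wild-type against 0.491 in Zfp57-/- cells. Where it was over 0.9, beside the runs, 20 of 55 genes were called, 15 with JF1 and 5 with B6 higher, and the genes' median ratio was 0.535. These are the genes left after the run members had been taken out. Their lower median thus follows in part from that removal and does not describe such neighbourhoods as a whole. Where it lay between 0.45 and 0.55, 1825 of 9434 genes were called (19.3%), 914 with JF1 and 911 with B6 higher, so the directions were balanced there. Strong bias still leaned to JF1 in these neighbourhoods, at 451 against 275 genes. Of the 914 JF1-higher calls there, 32.5% were called the same way in Zfp57-/- cells, against 55.5% of the 911 B6-higher calls.

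JF1-higher calls were most frequent relative to B6-higher calls on chromosomes 17 (108 against 28), 14 (73 against 27), 4 (118 against 49) and 8 (63 against 27), and least on chromosome 6 (26 against 67). Of the 240 genes within 1 Mb of a run, 77 were called (32.1%), 64 with JF1 higher, and 51 were strong toward JF1. The part that such stretches of the wild-type line have in the JF1-higher calls was not tested.

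**Figure D5:**
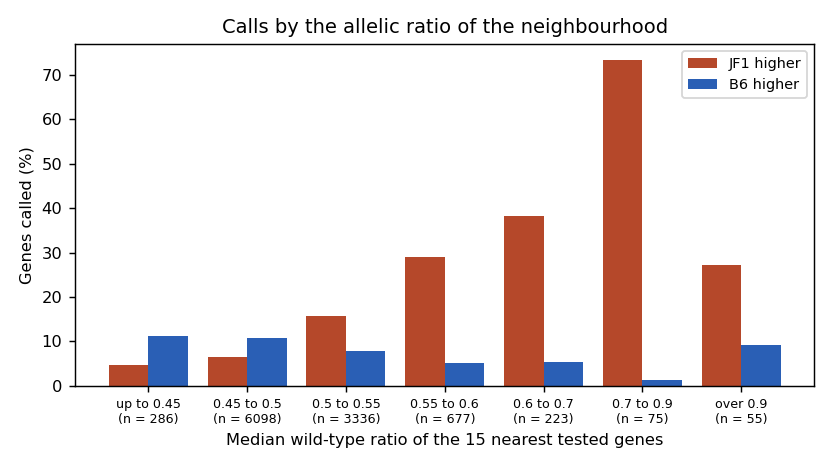
Share of genes outside runs called with JF1 higher (red) or B6 higher (blue) by the median wild-type ratio of the 15 nearest tested genes, with the number of genes in each class. JF1-higher calls rise to 55 of 75 genes in the class from 0.7 to 0.9 and are 15 of 55 in the class over 0.9, and B6-higher calls are the more frequent kind in the classes up to 0.5.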

How the data were processed

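The authors trimmed stranded paired-end reads with Trimmomatic 0.36, aligned them with STAR 2.5.4a to GRCm38 masked at JF1-B6 SNPs, kept unique alignments, split them by allele with SNPsplit, and deposited raw counts per GENCODE vM20 gene and allele (featureCounts, Subread 1.6.0), without normalization, beside bulk counts. Symbols came from GENCODE vM21 on the same build (54721 of 54750 genes). The number of SNPs per gene was not assessed.

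Allele counts were tested with edgeR 4.0.16 (R 4.3.3) on all 8 allele columns, with a term per library, an allele term per genotype and one library size for both alleles. DESeq2 1.42.0, a test of proportions, other scalings, centrings and minimums, and each replicate left out were alternatives. The test was checked on simulated data. Python 3.11.15 computed the rest.

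Named are, per direction, the 8 largest called differences and the 5 smallest further adjusted p among genes with at least 100 counts in both libraries, both on 1 side of 0.5, and a symbol other than Gm with digits, Rik or -ps, then the 5 most counted genes, strain-variant genes, and up to 3 called members per list, of which 2 are not reported here. Members and lists were chosen with earlier results of these data known. The name patterns of the synthetase and matrix lists were narrowed after unrelated genes were seen to match. Replicates are biological duplicates of 1 line per genotype, so p-values cover only that spread.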

Additional observations from a re-analysis of the deposited data

Results flagged for a closer look

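Groups of 2 libraries are too small for a search for outlying samples. The genotype-by-allele contrast found 773 wild-type calls whose log2 JF1/B6 differed between wild-type and Zfp57-/- cells, and among the 88 genes with individual values 34 passed it. The difference in mean ratio, wild-type minus Zfp57-/-, was over 0.5 for Rps3a1 (0.755), H2-D1 (0.674), Zfp763 (0.624), Kazn (0.618), Zfp691 (0.565), Ets2 (0.555), Tubb5 (0.534), Map3k4 (0.528), Erp44 (0.523) and Agpat4 (0.514). It was between 0.3 and 0.5 for Ina (0.477), Gsto1 (0.472), Col11a1 (0.454), Kif5b (0.410), Hist1h1c (0.396), Atp5g2 (0.339), Rpl3 (0.33) and Psmc3 (0.301). It was between 0.1 and 0.3 for Scnm1 (0.297), Nes (0.273), Apob (0.267), Hist1h3a (0.222), Tubb3 (0.217), Tapbp (0.2), Vars2 (0.176), Psmc2 (0.146), Hist1h4c (0.134), Zfp979 (0.126) and Fam171b (0.115), and smaller for Gata6 (0.094) and Rpl13 (0.054). JF1 had the lower share in wild-type cells at Zfp317 (-0.111), Ftl1 (-0.084) and Hjurp (-0.036).

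X-linked reads, which no autosomal comparison uses, were put on B6 at 0.194% in wild-type cells, although B6 gave no X chromosome to these cells. Mid1, a gene that spans the edge of the pseudoautosomal region, had 24 and 6 B6 against 64 and 59 JF1 counts in wild-type cells. In Zfp57-/- cells it had 77 and 95 B6 against 12 and 11 JF1 counts. Whether its B6 reads were misplaced was not tested.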

How the results depend on the processing

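Counts of genes outside runs are given here. The 2275 calls became 891 with DESeq2 and 814 with no replicate block, that is, without the library term that pairs both alleles of a library, and 1094 to 1324 with a wild-type replicate left out. The 991 strongly biased genes became 604 with DESeq2, 558 with at least 50 allelic counts and 417 with limits of 0.2 and 0.8. Of the calls, 551 were made the same way in 7 alternatives, namely the wild-type libraries only, DESeq2, either replicate left out, TMM, local centring and no replicate block.

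The share of calls with JF1 higher, 56.2%, turned to 48.0% with TMM. It was 54.0% in the wild-type libraries only, 51.9% by the test of proportions, 52.2% when centred on the 15 nearest genes, 62.5% at an adjusted p of 0.01, 73.8% with DESeq2, 75.7% with no replicate block, 65.2 to 68.3% with a replicate left out, and 50.1% for genes in neighbourhoods of 0.45 to 0.55, a setting chosen after the data were seen, as was the removal of multicopy families. The number of runs was 16, or 10 with at least 8 genes, and 15 to 17 with a replicate left out. A replicate block over both genotypes gave 771 calls that differ between genotypes against 773, and DESeq2 gave 422. The log2 JF1/B6 of same-numbered libraries of the genotypes did not deviate together (correlation 0.0144 over 7051 genes). An effect shared by both alleles cancels in this ratio, so whether those libraries were handled as pairs cannot be told from it.

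Centring reversed Col4a1 (0.03, adjusted p = 0.668), Eef1a1 (-0.21, adjusted p = 0.000239) and Tapbp (-0.26, adjusted p = 0.688). The causes were not tested. Of the 88 genes with individual values, 14 lost their call without wild-type replicate 1, 18 without replicate 2, 20 with DESeq2 and 22 with no replicate block, and none of these changed direction. Centring lost the calls of Vars2, Sox1, Lars2 and Apob, beside the reversals, and TMM those of Lamc1, Lars2 and Apob, while TMM called Malat1 (-0.14). Among genes with up to 50 allelic counts only differences of 1.37 or more on the log2 scale were called.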
